A study of Mus musculus with 6 samples.

Results

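Receptors for epidermal growth factor (EGF) and fibroblast growth factor (FGF) and ligands of the EGF family were compared between mouse neurospheres grown with norepinephrine (N) and with potassium chloride (K). The 10 genes were taken by name, with earlier results of these data known. They were the EGF-family receptor genes Egfr, Erbb2, Erbb3 and Erbb4 and the FGF receptor genes Fgfr1, Fgfr2 and Fgfr3. The ligand genes were Hbegf, Areg and Nrg1. A transcript cluster is the group of probes that covers a transcribed region. Of the 10 genes, 9 had a cluster annotated with that symbol alone, and each of the 9 had only 1 such cluster. Areg, which encodes amphiregulin, a ligand of the EGF receptor, was not matched to a cluster by this rule and was not analysed here. The 9 genes are part of 19937 genes measured in the same way. The neurospheres, floating colonies formed in culture by precursor cells, came from the hippocampus of adult male C57BL/6J mice aged 8 to 12 weeks and were collected on day 14. Medium with EGF and basic FGF was common to both groups, with 10 µM norepinephrine on 3 arrays (N) and 15 mM KCl on the other 3 (K). No array without either agent was analysed here, so the values show N against K and not which agent moved a gene. The labels call the spheres small and the samples biological replicates, without saying whether each came from separate animals, so p-values measure only the spread between these samples.

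The EGF family signals through 4 related receptor tyrosine kinases that work as pairs. Its ligands are made as membrane-anchored precursors and are released from the cell surface by metalloproteases. HB-EGF (Hbegf) binds the EGF receptor and ErbB4, neuregulin 1 (Nrg1) binds ErbB3 and ErbB4, ErbB2 has no known ligand of its own and serves as a partner, and ErbB3 has little kinase activity. FGF receptors bind FGFs together with heparan sulfate. Both receptor classes feed the RAS-RAF-MEK-ERK cascade, and EGF with basic FGF is the usual supplement that keeps neural precursors dividing in neurosphere culture.

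The values are log2 values made by the authors with the robust multi-array average (RMA). Array medians over all clusters lay between 6.30 and 6.40. K replicates 1 and 3 had the narrowest span from the lowest to the highest decile (4.89 and 4.85, against 5.07 to 5.14 on the other 4 arrays), and K replicate 2 was closer to the N arrays (mean Pearson r = 0.969 across clusters, which are not independent replicates) than to K replicates 1 and 3 (0.954). K replicate 1 was also slightly closer to the N arrays (0.955) than to the other K arrays (0.954). K replicate 3 was not (0.943 and 0.948). As a check of the labels, 5 marker genes were read over the 6 arrays. The precursor genes Nes and Sox2 had values of 8.09 to 8.99 and 9.67 to 10.41, the oligodendrocyte lineage gene Olig2 of 9.32 to 9.75, the astrocyte gene Gfap of 6.18 to 8.53 and the neuroblast gene Dcx of 5.39 to 5.59. These levels are not ranked against each other, since probes differ. RNA of whole cultures was measured, so fewer cells of a type and less RNA per cell cannot be told apart.

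Among the members Hbegf differed most between the groups. Its values were 8.30, 8.30 and 8.25 on N replicates 1, 2 and 3, and 7.30, 7.72 and 7.32 on K replicates 1, 2 and 3. All N arrays lay above all K arrays, with 0.53 between the lowest N and the highest K value, and K replicate 2 stood nearest to the N arrays. The log2FC of N minus K was 0.84 (standard error 0.14, 95% interval 0.51 to 1.16, n = 3 arrays per group), a level 1.78-fold higher with N (interval 1.42 to 2.24). It did not pass over all genes tested (adjusted p = 0.0956 from limma), where 0.155% of genes passed. An exact two-sided permutation test gave p = 0.1, the smallest that 3 arrays against 3 allow. Hbegf ranked 61 of 19937 genes by P and 157 by log2FC among genes higher with N. With a log2FC under 1 it was outside the rule by which the study formed its positive set on the arrays, namely an absolute log2FC above 1 together with a P below 0.05, taken here as unadjusted. That rule was met by 0 of the 9 members and by 0.492% of all genes. The N arrays were tight (SD 0.03, against 0.24 on the K arrays), and without K replicate 2 the log2FC was 0.97 (adjusted p = 0.0539 from limma). With any other array left out it was 0.76 to 0.85 (adjusted p from 0.225 to 0.339, limma). On GRCm38 (mm10) Hbegf lies on chromosome 18 from 36504927 to 36515805.

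**Figure D1:**
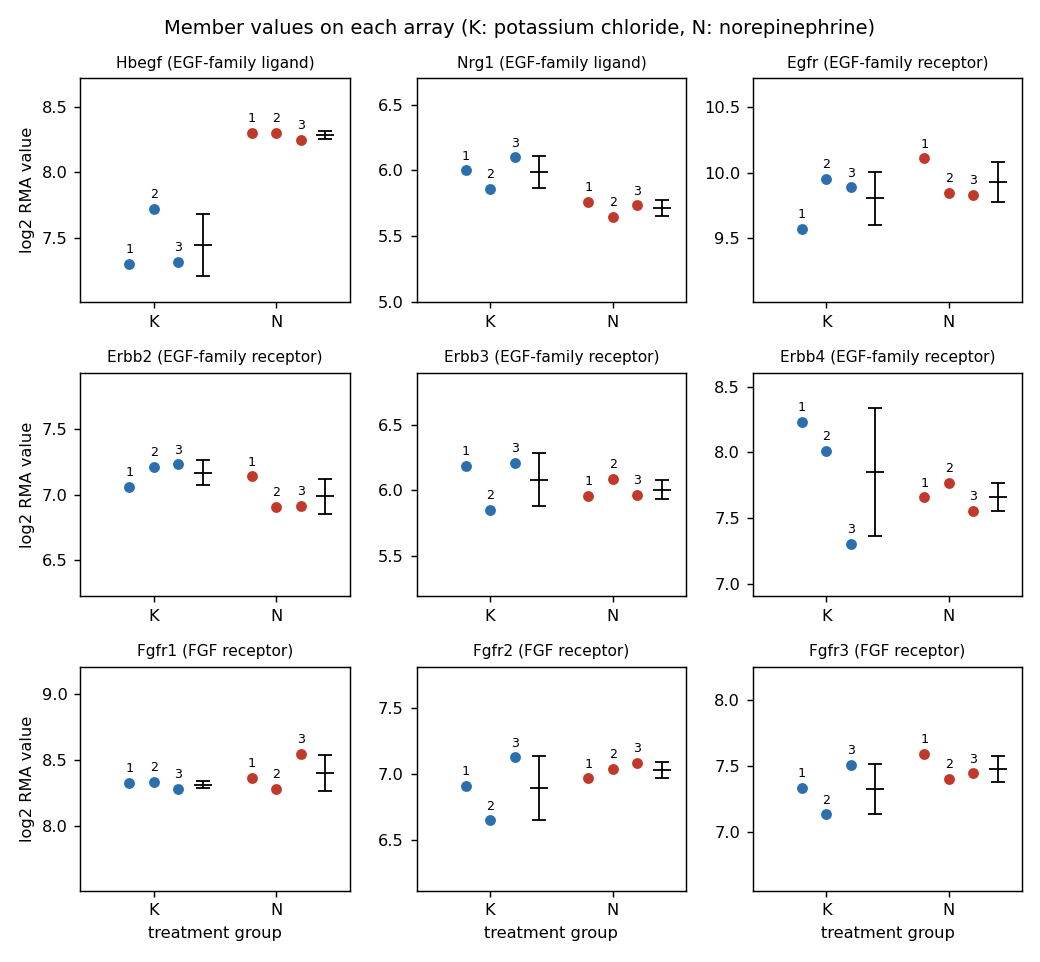
Log2 RMA values (vertical axis) of the 9 members on the K and N arrays (n = 3 each), as points numbered by replicate with the mean ± SD beside them, on axes of equal span but different position. Hbegf is the member whose groups lie farthest apart, Nrg1 is lower on every N array, and the groups of the 7 receptor genes overlap.

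Nrg1, which encodes neuregulin 1, was the only other member whose groups did not overlap. It had values of 5.76, 5.65 and 5.73 on N replicates 1, 2 and 3 and of 6.00, 5.86 and 6.10 on K replicates 1, 2 and 3. Every N array lay below every K array, but the gap was 0.09 and the values were below the median cluster, 6.34. The table holds no detection call, so whether Nrg1 was above background is not known. Its log2FC was -0.27 (standard error 0.12, 95% interval -0.55 to 0.003) and did not pass (adjusted p = 0.589 from limma). Non-overlapping groups were found for 2 of the 9 members, while 13.3% of all genes had them. The cluster covers a long gene with many isoforms (chromosome 8 from 31807452 to 32891609), which the deposited values do not separate.

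The EGF-family receptor genes did not pass, and none of the 4 had groups that stood apart. Egfr, the receptor for the EGF in the medium, had values of 10.11, 9.85 and 9.83 on the N arrays and 9.57, 9.95 and 9.89 on the K arrays, in the order of replicates 1 to 3. K replicate 1 was the lowest of the 6 arrays and the others lay within 0.28 of each other. The log2FC was 0.12 (standard error 0.15, 95% interval -0.21 to 0.46, adjusted p = 0.865 from limma). The data thus allow anything from 1.16-fold lower to 1.38-fold higher expression with N. Egfr lies on chromosome 11 from 16752203 to 16913907.

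Erbb2, the receptor gene without a ligand of its own, averaged 6.99 ± 0.13 with N and 7.17 ± 0.10 with K (SD, n = 3 each). N replicate 1 lay inside the range of the K arrays and the other N arrays below it. Its log2FC was -0.18 (standard error 0.13, 95% interval -0.47 to 0.11). Erbb3, the receptor gene with the weak kinase, had values from 5.96 to 6.09 with N, within the range of 5.85 to 6.21 with K. These lay below the median cluster, and the log2FC was -0.08 (standard error 0.14, 95% interval -0.39 to 0.23).

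Erbb4, which encodes a receptor for both HB-EGF and neuregulins, varied most among the K arrays. Its values were 8.23, 8.01 and 7.30 on K replicates 1, 2 and 3 and 7.66, 7.77 and 7.55 on N replicates 1, 2 and 3. K replicate 3 was the lowest array and K replicates 1 and 2 the highest, so the N arrays lay between them. The log2FC was -0.19 (standard error 0.22, 95% interval -0.70 to 0.32, adjusted p = 0.864 from limma). The value rested on single arrays: it was -0.46 without K replicate 3 (adjusted p = 0.478 from limma) and 0.000333 without K replicate 1.

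The 3 FGF receptor genes each had a slightly higher mean with N, by less than the spread between arrays. Fgfr1 had 8.37, 8.28 and 8.55 on N replicates 1, 2 and 3 and 8.33, 8.34 and 8.28 on K replicates 1, 2 and 3. The K arrays agreed within 0.06 and N replicate 3 was the highest. The log2FC was 0.08 (standard error 0.12, 95% interval -0.19 to 0.36). Fgfr2 averaged 7.03 ± 0.06 with N and 6.89 ± 0.24 with K, with a log2FC of 0.14 (standard error 0.15, 95% interval -0.19 to 0.47). Its lowest array was K replicate 2 and its highest K replicate 3, with all N arrays in between. Splice forms of Fgfr2 differ in the FGFs they bind, and the deposited values do not separate them. Fgfr3, a receptor gene expressed by astrocytes and precursors, averaged 7.48 ± 0.10 with N and 7.33 ± 0.19 with K, with a log2FC of 0.15 (standard error 0.14, 95% interval -0.16 to 0.46). Over the 7 receptor genes of both families the adjusted p ran from 0.768 to 0.914 (limma). The widest interval, that of Erbb4, reached 1.62-fold lower with N, and the highest upper end, that of Fgfr2, reached 1.38-fold higher. These intervals bound the differences and do not show that the levels were equal. Single arrays moved the small values of other receptor genes too. For example, Egfr was 0.0094 without K replicate 1, Fgfr1 0.010 without N replicate 3, Fgfr2 0.013 without K replicate 2 and 0.25 without K replicate 3, Fgfr3 0.056 without K replicate 2, and Erbb3 -0.013 without K replicate 3 and -0.19 without K replicate 2.

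**Figure D2:**
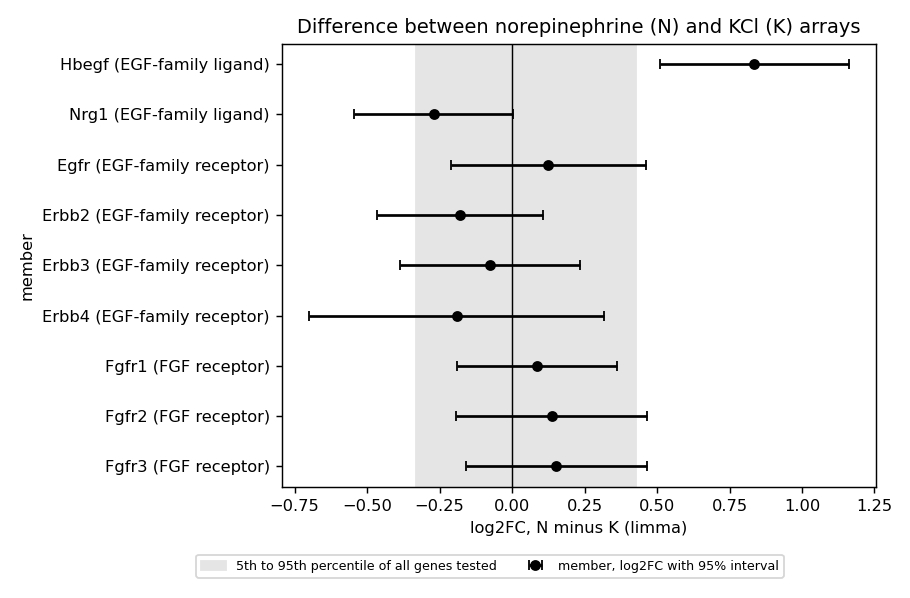
Log2FC of N minus K (horizontal axis) of the 9 members as points with 95% intervals from limma (n = 3 arrays per group), over a grey band from the 5th to the 95th percentile of all genes tested, -0.33 to 0.43. Hbegf at 0.84 is the member outside the band, and the intervals of the other 8 include 0.

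At an unadjusted P under 0.05 from limma, 1 of the 9 members passed, Hbegf, against 8.54% of all genes. With K replicate 3 left out, 5 members had groups that did not overlap (Hbegf, Nrg1, Erbb4, Fgfr2 and Fgfr3), where 21.6% of all genes did. Hbegf and Nrg1 were already apart on all 6 arrays, so leaving out an array could not make their groups overlap and tests nothing.

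The value of Hbegf relative to each other member on the same array was compared as well, since a shift of a whole array cancels in it. Hbegf minus Egfr was -1.81 to -1.55 on the N arrays and -2.57 to -2.23 on the K arrays, a difference of 0.71 between the group means. Against the other members the difference of the group means ran from 0.68 for Fgfr3 to 1.11 for Nrg1, and in all 8 comparisons the groups did not overlap. Hbegf was taken for them because its own difference was the largest, and they share its values, so they are a description with no test.

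**Figure D3:**
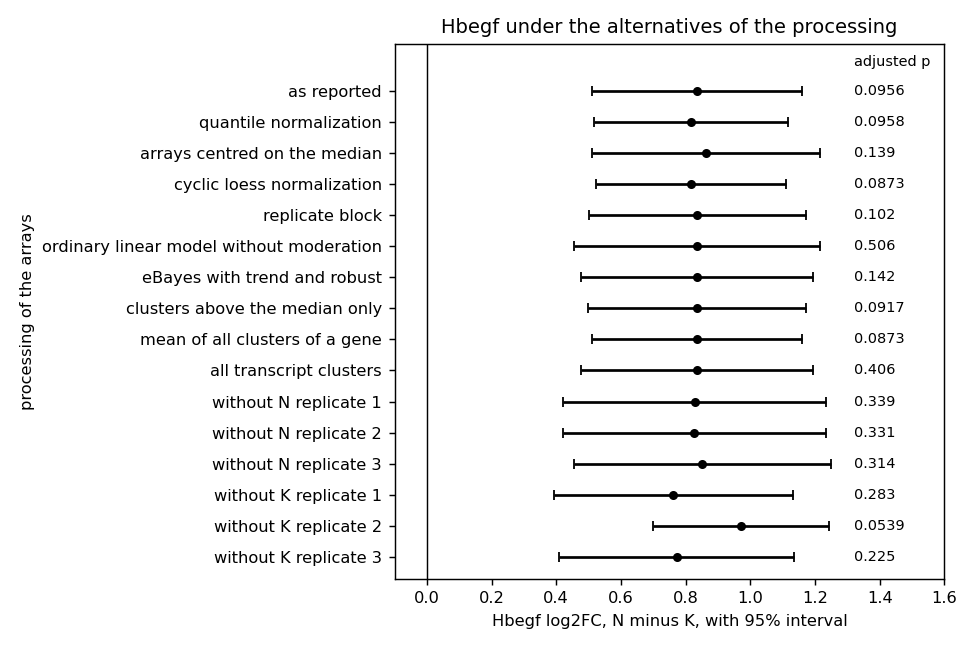
Hbegf log2FC of N minus K (horizontal axis) with its 95% interval as reported and under 15 alternatives of the processing, with the adjusted p at the right. The values run from 0.76 to 0.97, and the adjusted p stays above 0.05 throughout.

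Astrocyte markers were also higher on the N arrays. Of 8 astrocyte markers, 6 had non-overlapping groups with N higher and 0 with N lower, and their mean log2 level was 8.42 to 8.80 on the N arrays and 7.81 to 7.88 on the K arrays. Gfap was higher on the N than on the K arrays, with a log2FC of 1.66 (standard error 0.21, adjusted p = 0.0358 from limma). Gfap passed in 4 of 15 alternatives of the processing and did not pass with any array left out (adjusted p from 0.00887 to 0.486 over the 15, limma). The mean levels of the other marker lists were closer between the groups: 9.03 to 9.08 with N and 8.93 to 9.04 with K for 8 precursor markers, 7.66 to 7.69 and 7.70 to 7.80 for 7 oligodendrocyte lineage markers, and 6.13 to 6.14 and 5.80 to 6.14 for 8 neuron and neuroblast markers. The means of the lists for microglia, endothelial cells and pericytes and fibroblasts were 5.63 to 6.17 over the arrays. A list mean averages probes of different genes, some of them brighter, such as Cx3cr1 with 6.68 to 7.16 and Col1a1 with 6.92 to 7.25. It can also hide opposite differences: of the 8 precursor markers 3 lay higher on every N array, and Nes lay lower, with a log2FC of -0.53 (standard error 0.16). Of the neuron and neuroblast markers 3 of 8 lay higher on every N array, and of the 7 oligodendrocyte lineage markers 1, Olig1, lay lower. Non-overlapping groups in either direction were found for 13.3% of all genes. The part of any of these cells in the Hbegf difference was not tested. The 5 genes most like Hbegf over the 6 arrays by Pearson correlation were Vps35 (r = 0.997), Sparcl1 (r = 0.996), Rimklb (r = 0.996), Ptges3 (r = 0.994) and Rtn1 (r = 0.994). In all, 94 of 19936 genes had r above 0.95 with Hbegf over these 6 arrays in 2 groups. Of the 5, Rtn1 differed most, with a log2FC of 0.84 (standard error 0.16), and none passed (adjusted p from 0.127 to 0.436, limma).

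The other genes of both pathways were described in 8 lists, of which 71 of 77 genes were measured. Among 8 further EGF-family ligand genes none passed and none had non-overlapping groups. The smallest P values belonged to Btc, which encodes betacellulin, with a log2FC of 0.30 (standard error 0.14), and Egf with -0.39 (standard error 0.20). The 18 FGF ligand genes had log2FC from -0.20 to 0.19, with 0.15 for Fgf2, the gene of basic FGF (standard error 0.15). Fgf1 was bright (8.49 to 8.82 over the 6 arrays), but Fgf2 (5.35 to 5.83) lay below the median cluster, 6.34. Without a detection call, a small log2FC of a dim gene does not show that the gene was expressed and did not differ. Fgf5 had -0.20 and Fgf17 -0.18, the latter with every N array below every K array. Fgfr4, Fgfrl1 and the co-receptor genes Kl and Klb had log2FC from -0.14 to -0.05. Kl (5.43 to 5.89) and Klb (5.45 to 5.71) also lay below the median cluster, and Fgfrl1 lay above it. Adam10 and Adam17, which encode metalloproteases that release EGF-family ligands, had -0.11 and -0.01 (standard errors 0.13 and 0.16), and Rhbdf1 and Rhbdf2, whose proteins help ADAM17 to mature, 0.04 and -0.05.

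Among 9 genes for inhibitors and degradation of the receptors, Lrig2 had a log2FC of 0.65 with a wide spread (standard error 0.32). Its K arrays split, with 5.36, 6.68 and 5.40 on K replicates 1, 2 and 3 against 6.43 to 6.49 with N, so that K replicate 2 was the highest of all. Socs5 had 0.26 (standard error 0.14), Cblb, which encodes a ubiquitin ligase, -0.24 (standard error 0.14), and Errfi1, an inhibitor of the EGF receptor, 0.22 (standard error 0.15). Of 10 adaptor genes, Ptpn11, which encodes the phosphatase SHP2 that carries receptor signals to RAS, stood lower with N: it had 8.66, 8.58 and 8.65 on N replicates 1, 2 and 3 and 9.15, 9.26 and 9.12 on K replicates 1, 2 and 3. Both groups were tight and lay apart, with a log2FC of -0.55 (standard error 0.11), but the gene did not pass (adjusted p = 0.180 from limma). Of the cascade genes measured, Nras had a log2FC of 0.22 (standard error 0.13) and Map2k2 -0.19 (standard error 0.13). Outside the ERK feedback genes, 1 of the 58 genes of these lists, Ptpn11, reached an unadjusted P under 0.05, or 1.72% against 8.54% of all genes, and the median log2FC was -0.03, as over all genes (-0.03). Some of the 58 genes were dim, Fgf2 among them. The share also depended on the arrays. With K replicate 2 left out, 2 EGF-family ligand genes, 2 inhibitor or degradation genes, 3 adaptor genes and 2 cascade genes reached that threshold. Over all 8 lists the count was then 12, against 4 to 6 with any other array left out. The share of all genes was not counted there.

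The last list held ERK feedback genes and targets, which ERK signalling induces and several of which damp it in turn. Il17rd encodes an inhibitor of FGF signalling. It had 6.09, 6.13 and 5.95 on N replicates 1, 2 and 3 and 7.06, 7.41 and 7.55 on K replicates 1, 2 and 3. The gene was lower on the N than on the K arrays, with a log2FC of -1.28 (adjusted p = 0.0297 from limma, standard error 0.15). It passed in 5 of 15 alternatives and in none that left out an array (adjusted p from 0.0256 to 0.463, limma), and its log2FC was -0.72 with the mean of all its clusters. Of 13 genes 5 had an unadjusted P under 0.05 (38.5%), all lower with N, where 3.89% of all genes were lower with N at that threshold. Besides Il17rd these were Dusp4 with a log2FC of -0.45 (standard error 0.16), Etv1 with -0.42 (standard error 0.15), Spry1 with -0.40 (standard error 0.16) and Dusp6 with -0.29 (standard error 0.13), none of the 4 passing over all genes tested. The median of the list was -0.28. The count of 5 went down with fewer arrays, to 1 without N replicate 1 and to 3 without any one of the other 5 arrays. Every N array lay below every K array for 6 of the 13 genes (the 5 and Spry4) and above for 1 (Spred1), where 13.3% of all genes had groups apart in either direction. Etv5, Spry2 and Spred2 had log2FC from -0.04 to 0.03.

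**Figure D4:**
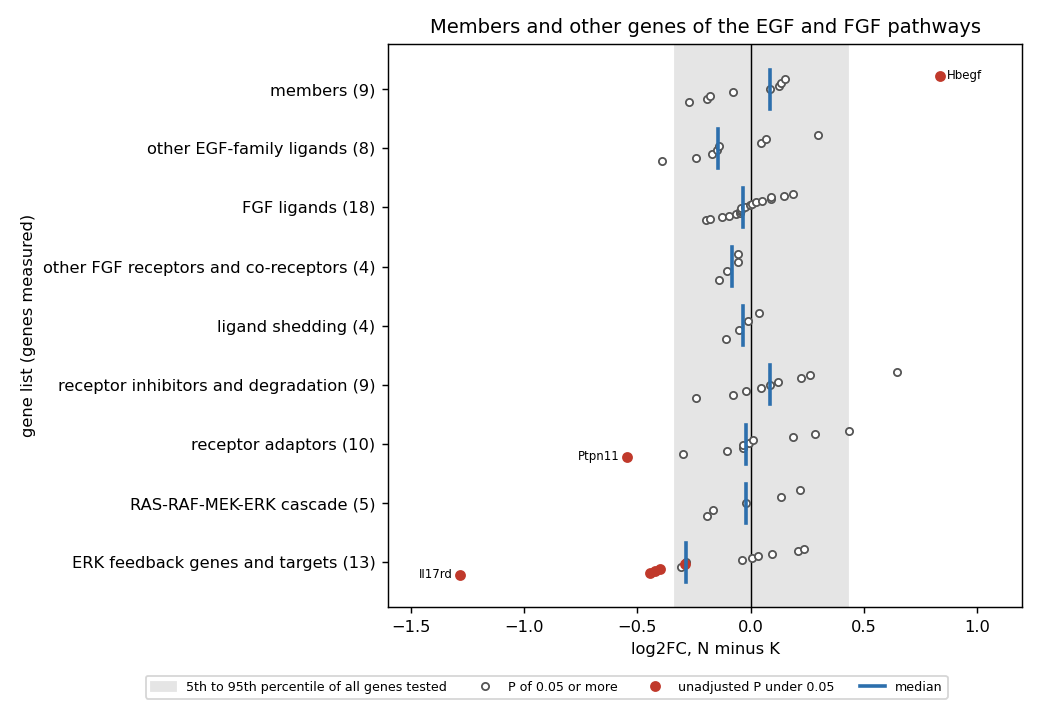
Log2FC of N minus K (horizontal axis) of the members and of 71 other genes of the EGF and FGF pathways, by list, with filled points at an unadjusted P under 0.05 (limma, n = 3 arrays per group), a blue bar at each median and a grey band from the 5th to the 95th percentile of all genes tested. Hbegf lies to the right, Ptpn11 and Il17rd to the left, and the list of ERK feedback genes has the lowest median, -0.28.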

How the data were processed

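Gene expression in 3 N and 3 K neurosphere samples was measured with Affymetrix Mouse Gene 1.0 ST arrays, whose probes lie along the whole transcript, after conversion of RNA to labelled cDNA. The deposited values are log2 values: the authors summarised the scanned arrays with RMA in Partek (background correction, normalization between arrays, 1 value per transcript cluster), and versions and settings are not given in the sources used here. No filter was applied. Of 34760 clusters, 21640 carried exactly 1 symbol in the array annotation, 1321 several and 11799 none. For each of the 19937 genes the cluster with the highest mean was used. Gene IDs were matched to RefSeq (GRCm38), which gave the coordinates, and 0 symbols changed. N minus K was fitted with limma 3.58.1 in R 4.3.3 (lmFit, eBayes, 4 residual and 4.59 prior degrees of freedom), with Benjamini-Hochberg adjustment over all genes at 0.05. Intervals are 95% intervals of the moderated fit, unadjusted. The study's methods, as far as used here, name no test for the arrays and do not say whether their P was adjusted. The number of arrays, 3 per group, sets the precision. Simulated independent normal values with known changes, none under 1 in absolute log2FC, were used to test the fit. They do not show how it behaves for smaller changes or on arrays of unequal span. No file gives scan or labelling batches. The replicate number was not used as a block, since nothing states that it pairs the arrays.

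The members and gene lists were chosen with earlier results of these data known. Named genes were all members, in each list those with an unadjusted P under 0.05 or else the 2 with the smallest P, the 5 genes most like Hbegf, and 5 marker genes. Others (Fgf2, Fgfr4, Fgfrl1, Adam17, Rhbdf1, Errfi1, Cblb, Etv5, Spry2, Spry4, Spred1, Spred2, Olig1, Cx3cr1 and Col1a1) complete a list or were chosen after their values were seen. Of the listed genes, 8 were not analysed here, Areg among them. Alternatives were quantile, median and cyclic loess normalization, a replicate block, no moderation, trend with robust eBayes, bright clusters only, the mean of all clusters, all clusters, and each array left out. Figures were drawn with matplotlib 3.10.9.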

Additional observations from a re-analysis of the deposited data

How the results depend on the processing

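Hbegf stayed higher with N in all 15 alternatives, with a log2FC from 0.76 to 0.97 and an adjusted p from 0.0539 to 0.506 (limma), and 0 members passed in any of them. Erbb4 turned to 0.000333 without K replicate 1 and was lowest, -0.46, without K replicate 3; the cause was not tested. The other members kept their direction wherever they were tested (Nrg1 and Erbb3 lie under the filter on dim clusters, with 14 alternatives each). Members at an unadjusted P under 0.05 numbered 2 without moderation and 2 with trend and robust eBayes, Nrg1 joining Hbegf (P from limma). With an array left out they numbered 1 to 2. Nrg1 joined Hbegf without K replicate 2, and the receptor gene Erbb4 joined it without K replicate 3 (unadjusted P = 0.0116 from limma). Members with non-overlapping groups numbered 1 with bright clusters only, since Nrg1 is then not tested, and 2 to 5 with an array left out. With an array left out, 20.6% to 34.2% of all genes had such groups, the most without K replicate 2. Pathway-list genes at an unadjusted P under 0.05 numbered 6 of 71 (8.45%), against 8.54% of all genes. They numbered 4 to 12 with an array left out, the highest without K replicate 2. The share of all genes at that threshold was not counted with an array left out.

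Over all genes, 31 passed at an adjusted p under 0.05 from limma, against 12 with quantile and 12 with cyclic loess normalization, 3 with arrays centred on the median, 1 without moderation, 0 with all transcript clusters and 0 to 21 with an array left out. The count was 41 with the replicate block, 30 with trend and robust eBayes, 29 with bright clusters only and 29 with the mean of all clusters.

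With the replicate number as a block Hbegf had a log2FC of 0.84 (adjusted p = 0.102 from limma). Deviations of arrays from their group means correlated by 0.04, 0.04 and 0.12 across genes for N and K arrays with the same number. For arrays with different numbers the correlations ran from -0.14 to 0.11. With so few arrays these values cannot decide whether the numbers pair them. The values carry no detection call, so dim clusters, such as those of Nrg1, Erbb3 and Fgf2, cannot be set against background.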
